A study of Mus musculus with 9 samples.

Results

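Mx1, Mx2, Rsad2 and Cmpk2 are 4 antiviral genes of the interferon response, and they were followed here in the small intestine of irradiated mice. They were found by symbol among the 19360 genes of the count table, and all 4 of 4 were expressed strongly enough to be tested, with 14199 genes tested in all. The mice were wild type, of the inbred strain BALB/c, and all received total body irradiation (TBI) at 9 Gy 12 h before the intestine was taken. Mice of the 3pRNA + anti-IFNAR1 + TBI group had been given a blocking antibody against the receptor for IFN-α and IFN-β 48 h before TBI and 3pRNA, a triphosphate RNA that activates the sensor RIG-I, 24 h before TBI. Mice of the 3pRNA + TBI group had been given 3pRNA 24 h before TBI, and mice of the TBI group were irradiated without either agent, with 3 mice in each group. For age, the methods of the study give a general range of young adult mice and nothing specific to these. Among the samples no mouse received the carrier of 3pRNA, a control antibody or the blocking antibody alone, and none was left unirradiated, so what the carrier, the antibody as such or irradiation contributed cannot be told apart from the treatments named.

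When IFN-α or IFN-β binds its receptor, the kinases Jak1 and Tyk2 activate transcription factors that enter the nucleus with Irf9 as the complex ISGF3. ISGF3 binds a short DNA element, the interferon-stimulated response element (ISRE), in front of many antiviral genes. Mx proteins are large GTPases of the dynamin superfamily that block the multiplication of some viruses, and many laboratory mouse strains, BALB/c among them, carry a defective Mx1 allele, so a transcript level says nothing here about a working Mx1 protein. Rsad2 encodes viperin, an iron-sulfur enzyme of the radical SAM family that converts CTP into a chain-terminating nucleotide. Cmpk2 encodes a mitochondrial nucleotide kinase that phosphorylates CMP and UMP and their deoxy forms, and lies next to Rsad2 in mammals.

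Mx1 (ENSMUSG00000000386) is on the minus strand and Mx2 (ENSMUSG00000023341) on the plus strand of chromosome 16. GENCODE names Mx1 a protein-coding gene and Mx2 a polymorphic pseudogene, and RefSeq lists both as transcribed pseudogenes. Rsad2 (ENSMUSG00000020641) is on the minus strand and Cmpk2 (ENSMUSG00000020638) on the plus strand of chromosome 12, so that the 2 genes point away from each other, with no other annotated gene between them. The 250 bases in front of the start of each of these neighbours are shown because the log2 changes of the pair, given below, were unlike in size. The sequences are those of RefSeq for GRCm38.p6, each on the strand of its gene, chr12:26456453-26456702 on the minus strand for Rsad2 and chr12:26468965-26469214 on the plus strand for Cmpk2, and capitals mark the ISRE core.
Rsad2: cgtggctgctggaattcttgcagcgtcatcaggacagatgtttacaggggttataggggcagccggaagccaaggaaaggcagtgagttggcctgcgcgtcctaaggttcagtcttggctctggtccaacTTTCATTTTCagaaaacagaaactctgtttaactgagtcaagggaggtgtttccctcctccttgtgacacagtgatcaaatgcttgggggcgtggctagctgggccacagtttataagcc
Cmpk2: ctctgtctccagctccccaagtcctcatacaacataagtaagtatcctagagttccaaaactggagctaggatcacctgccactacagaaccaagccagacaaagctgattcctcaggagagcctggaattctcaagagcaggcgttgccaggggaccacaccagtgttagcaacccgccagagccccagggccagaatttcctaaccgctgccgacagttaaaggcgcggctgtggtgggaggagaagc
The core searched for was GAAANNGAAA, or TTTCNNTTTC on the other strand. The Rsad2 window held 1 match, TTTCATTTTC, between 120 and 111 bases before the start, and the Cmpk2 window held none. Of 32851 windows of this length over all genes, 2.98% held the ISRE core. The match is a description of letters and no binding was measured. Forms of the ISRE that depart from this core were not searched for. Whether the element bears on the unlike changes of the pair was not tested. The table of promoters matched 2 of the 4 genes, and Mx1 and Mx2 are the others.

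Values are scaled counts, which are reads per gene after a size factor had evened out the depth of the libraries. The libraries held between 6487053 and 19946586 reads in genes. Epithelial markers were abundant in every library, with a summed level of 250927 to 276637 in 3pRNA + anti-IFNAR1 + TBI, 212427 to 243366 in 3pRNA + TBI and 258745 to 302703 in TBI, as the labelled tissue has. The libraries of TBI replicates 1 and 3 stood apart in the muscle layer of the gut wall, with summed smooth muscle markers of 5815 and 5681 against 19397 in TBI replicate 2. All libraries of the other groups were between 16654 and 29759 in that sum. In bulk tissue, fewer cells of a type and less RNA per cell cannot be told apart. The 4 genes had between 25 reads (Mx2 in 3pRNA + anti-IFNAR1 + TBI replicate 3, with a 95% Poisson interval of 16.2 to 36.9 reads) and 2256 reads (Cmpk2 in 3pRNA + TBI replicate 2) per library. Such intervals cover counting error only.

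Mx1 and Mx2 were several-fold higher with 3pRNA before TBI than after TBI alone. Rsad2 averaged 2.87-fold and Cmpk2 1.28-fold the level after TBI alone, and neither passed the test. Mice that had also received anti-IFNAR1 had low levels of the Mx genes and, in 2 of the 3 mice, of Rsad2. The plot of scaled counts by mouse shows each value. Log2 changes below come from limma on log2(scaled count + 1), fitted across all 14199 genes, with Benjamini-Hochberg adjusted p-values and a threshold of 0.05. The 3 comparisons share their groups, so that the level of a high or low mouse enters 2 of them. Its spread enters the SE of all 3, since the groups were fitted at once.

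**Figure D1:**
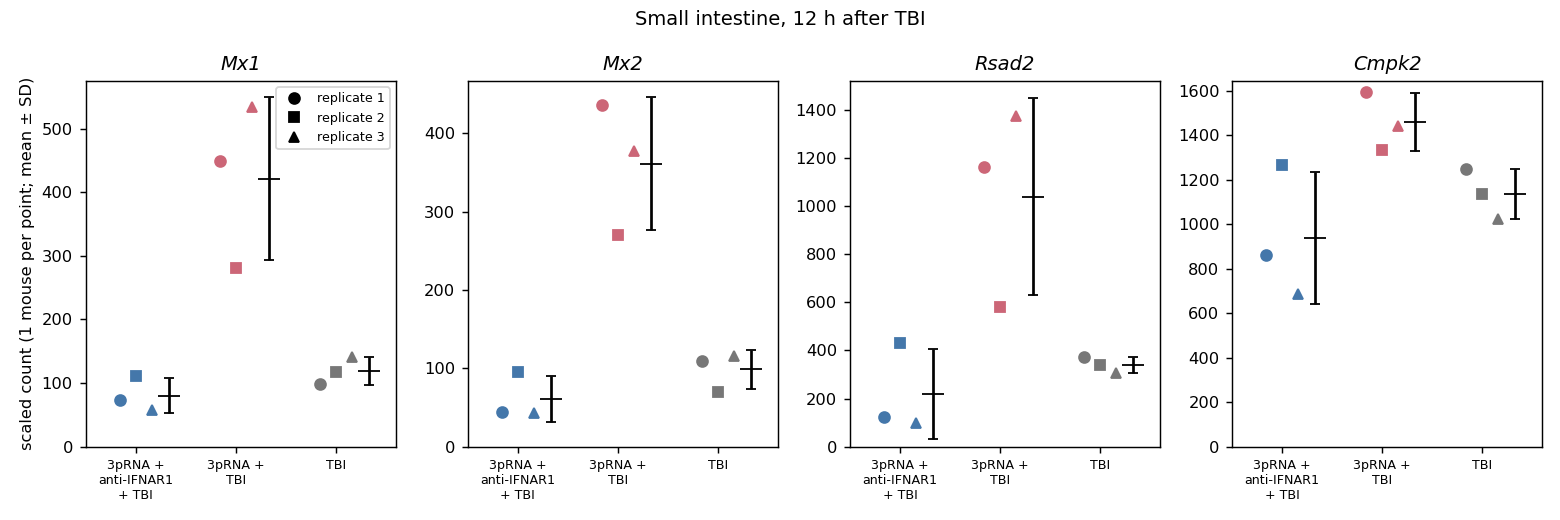
Scaled counts of Mx1, Mx2, Rsad2 and Cmpk2 in the small intestine of each mouse 12 h after TBI, with 1 point per mouse, the replicate number as the symbol and the mean ± SD beside the points (n = 3). In every panel the 3 mice of 3pRNA + TBI lie above the 3 mice of TBI and above the 3 mice of 3pRNA + anti-IFNAR1 + TBI, and replicate 2 of 3pRNA + anti-IFNAR1 + TBI is the highest of its group.

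Mx1 had 72.9, 110.5 and 57.0 scaled counts in replicates 1, 2 and 3 of 3pRNA + anti-IFNAR1 + TBI, 449.7, 281 and 533 in 3pRNA + TBI, and 98.2, 117 and 142 in TBI. All 3 mice of 3pRNA + TBI were above every other mouse, while the remaining groups overlapped. Mx1 averaged 421 ± 128 scaled counts in 3pRNA + TBI and 119 ± 21.7 in TBI (SD, n = 3 each), a log2 change of 1.78 ± 0.27 (SE) or 3.44-fold, with an adjusted p of 0.0083 in limma. With anti-IFNAR1 Mx1 averaged 80.1 ± 27.5 scaled counts, and fell by 2.38 ± 0.27 (SE) on the log2 scale, 5.22-fold lower than in 3pRNA + TBI (limma, adjusted p = 0.0012).

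Mx2 followed a like course at a similar level. It had 44.7, 94.9 and 43.1 scaled counts in 3pRNA + anti-IFNAR1 + TBI, 436, 269 and 377 in 3pRNA + TBI, and 109.9, 69.6 and 116 in TBI. As with Mx1, the mice of 3pRNA + TBI stood above all others. Mx2 averaged 361 ± 84.7 scaled counts in 3pRNA + TBI and 98.5 ± 25.2 in TBI, a log2 change of 1.87 ± 0.31 (SE) or 3.66-fold (limma, adjusted p = 0.012). With anti-IFNAR1 it averaged 60.9 ± 29.4, a log2 change of -2.62 ± 0.31 (SE) against 3pRNA + TBI, 6.14-fold lower (limma, adjusted p = 0.0014). Without 3pRNA + TBI replicate 1 the higher level of Mx2 in 3pRNA + TBI than in TBI no longer passed (limma, adjusted p = 0.059).

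The transcripts of the Mx genes are alike over short stretches. Of the 50-base words in the annotated transcripts of Mx1, 3.86% also occur in Mx2, and of those of Mx2, 4.38% occur in Mx1, so the part of their levels that rests on such stretches is uncertain. The ratio of Mx2 to Mx1 scaled counts was 0.613, 0.858 and 0.758 in 3pRNA + anti-IFNAR1 + TBI, 0.970, 0.958 and 0.708 in 3pRNA + TBI, and 1.12, 0.594 and 0.820 in TBI. The ranges of the 3 groups overlapped. The mean log2 ratio was 0.088 higher in 3pRNA + TBI than in TBI (exact permutation test, two-sided p = 0.70) and differed by -0.23 between 3pRNA + anti-IFNAR1 + TBI and 3pRNA + TBI (exact p = 0.30), with adjusted p-values of 0.70 and 0.60 over the 6 ratio tests run. The genes between and beside the Mx pair, Fam3b, Bace2 and Tmprss2, did not pass the test in any of the 3 comparisons, with log2 changes between -0.19 for Tmprss2 and 0.089 for Bace2 in 3pRNA + TBI against TBI.

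Rsad2 had the widest spread of the 4 in the groups that received 3pRNA. It had 124, 433 and 96.6 scaled counts in 3pRNA + anti-IFNAR1 + TBI, 1161, 581 and 1373 in 3pRNA + TBI, and 373, 341 and 306 in TBI. All mice of 3pRNA + TBI were again above all others, and replicate 2 of 3pRNA + anti-IFNAR1 + TBI was above every mouse of TBI whereas its 2 group mates were below them. The highest mouse over the lowest was 4.48 in 3pRNA + anti-IFNAR1 + TBI, 2.36 in 3pRNA + TBI and 1.22 in TBI. Viperin mRNA averaged 1038 ± 410.0 scaled counts in 3pRNA + TBI and 340.3 ± 33.5 in TBI (SD, n = 3 each). The log2 change was 1.52 ± 0.48 (SE) or 2.87-fold, with a 95% interval of 0.47 to 2.57, and it did not pass the adjusted threshold (limma, adjusted p = 0.085). With anti-IFNAR1 Rsad2 averaged 218 ± 187 scaled counts, and fell by 2.49 ± 0.48 (SE) on the log2 scale against 3pRNA + TBI (limma, adjusted p = 0.027).

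These calls of Rsad2 turned on single mice, also on mice outside the groups compared, since the fit draws its SE from all 3 groups. Without replicate 2 of 3pRNA + anti-IFNAR1 + TBI, both passed. For 3pRNA + TBI against TBI, which does not hold that mouse, the log2 change stayed at 1.52. Its SE went from 0.48 to 0.27 (limma, adjusted p = 0.014). With anti-IFNAR1 against 3pRNA alone before TBI the change was -3.15 (limma, adjusted p = 2.7e-04). The fall with anti-IFNAR1 no longer passed without TBI replicate 1 (limma, adjusted p = 0.051), without replicate 1 or 3 of 3pRNA + TBI (0.14 and 0.097) or without replicate 1 or 3 of 3pRNA + anti-IFNAR1 + TBI (0.14 and 0.12).

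Cmpk2, the neighbour of Rsad2, was the most abundant of the 4 and moved least. It had 863, 1267 and 685 scaled counts in 3pRNA + anti-IFNAR1 + TBI, 1596, 1336 and 1442 in 3pRNA + TBI, and 1246.5, 1136 and 1023 in TBI. The lowest mouse of 3pRNA + TBI was only slightly above the highest mouse of TBI, and replicate 2 of 3pRNA + anti-IFNAR1 + TBI was above all 3 mice of TBI. Cmpk2 averaged 1458 ± 131 scaled counts in 3pRNA + TBI and 1135 ± 112 in TBI, a log2 change of 0.36 ± 0.18 (SE) or 1.28-fold, with a 95% interval of -0.04 to 0.76 that leaves room for no change (limma, adjusted p = 0.28). With anti-IFNAR1 it averaged 938 ± 298, a log2 change of -0.68 ± 0.18 (SE) against 3pRNA + TBI, 1.60-fold lower, which did not pass (limma, adjusted p = 0.14). Without replicate 2 of 3pRNA + anti-IFNAR1 + TBI that change was -0.92 and passed (limma, adjusted p = 0.0040).

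**Figure D2:**
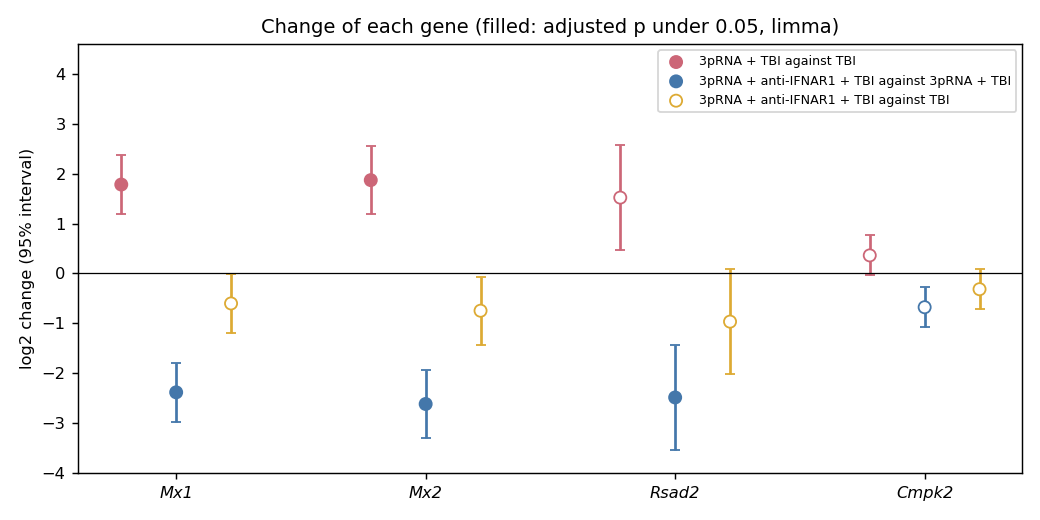
Log2 change of each gene in the 3 comparisons from limma, with 95% intervals and filled points where the adjusted p was under 0.05. Mx1 and Mx2 passed in both 3pRNA + TBI against TBI and 3pRNA + anti-IFNAR1 + TBI against 3pRNA + TBI, Rsad2 passed in the second of these alone, and no point of 3pRNA + anti-IFNAR1 + TBI against TBI is filled.

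Thus 2 of the 4 genes rose with 3pRNA before TBI, where 3.48% of all genes tested rose (494 genes, with 300 lower, or 803 higher and 175 lower when libraries were scaled to equal totals). With anti-IFNAR1, 3 of the 4 genes fell against 3pRNA + TBI, where 1.23% of all genes tested fell. The median log2 change of the 4 genes was 1.65 in 3pRNA + TBI against TBI and -2.44 in 3pRNA + anti-IFNAR1 + TBI against 3pRNA + TBI, beside -0.024 and 0.0027 over all genes tested. The groups did not overlap for any of the 4 genes in these comparisons, as was so for 12.2% of all genes tested that were higher with 3pRNA before TBI and for 7.25% that were lower with anti-IFNAR1. Exact permutation tests gave p = 0.10 for each of these changes, the smallest p that 3 mice against 3 allow.

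The third comparison set mice with 3pRNA and anti-IFNAR1 against mice with neither. All 4 genes averaged less in 3pRNA + anti-IFNAR1 + TBI than in TBI, and none passed. The log2 change was -0.60 ± 0.27 (SE) for Mx1 and -0.75 ± 0.31 for Mx2 (limma, adjusted p = 0.40 and 0.36). It was -0.97 ± 0.48 for Rsad2 and -0.32 ± 0.18 for Cmpk2 (limma, adjusted p = 0.44 and 0.51). Without replicate 2 of 3pRNA + anti-IFNAR1 + TBI the change was -1.63 for Rsad2 and -0.56 for Cmpk2 (limma, adjusted p = 0.073 and 0.10). Without replicate 3 of that group it was -0.55 for Rsad2, -0.11 for Cmpk2 and -0.39 for Mx1, and without TBI replicates 1 and 3 it was -0.29 for Mx2. None of the 4 genes passed with any of these libraries left out. The groups overlapped for each gene because of replicate 2 of 3pRNA + anti-IFNAR1 + TBI, and replicates 1 and 3 were below every mouse of TBI for all 4 genes. In this comparison limma called 0 of the 14199 genes, a share of 0%, and 1753 genes (12.3%) had an unadjusted p under 0.05. Mx1 and Mx2 were among the 851 such genes (5.99%) with a lower level in 3pRNA + anti-IFNAR1 + TBI. Groups that did not overlap, with 3pRNA + anti-IFNAR1 + TBI the lower, were found for none of the 4 genes and for 12.1% of all genes tested.

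The order of the levels was the same in all 3 groups when scaled counts were divided by the exon length of each gene. Per kilobase of exon, Cmpk2 averaged 225 ± 71.6 in 3pRNA + anti-IFNAR1 + TBI, 350.2 ± 31.4 in 3pRNA + TBI and 273 ± 26.8 in TBI. Rsad2 came next, with 50.2 ± 43.1 in 3pRNA + anti-IFNAR1 + TBI, 239.5 ± 94.6 in 3pRNA + TBI and 78.5 ± 7.73 in TBI. The Mx genes were lowest and close to each other, Mx1 at 21.2 ± 7.26, 111 ± 33.9 and 31.4 ± 5.73 and Mx2 at 16.9 ± 8.14, 99.9 ± 23.4 and 27.3 ± 6.97 per kilobase in the same groups. Mx1 and Mx2 did not differ beyond their spread in any group. In 3pRNA + TBI the mice overlapped between Rsad2, at 134 to 317 per kilobase, and Mx1, at 74.3 to 141. In 3pRNA + anti-IFNAR1 + TBI the spread of Rsad2 also reached down to that of the Mx genes.

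The balance between Cmpk2 and Rsad2 was lower in every mouse of 3pRNA + TBI than in the other mice, although its tests did not pass. The ratio of Cmpk2 to Rsad2 scaled counts was 6.99, 2.93 and 7.09 in replicates 1, 2 and 3 of 3pRNA + anti-IFNAR1 + TBI, 1.37, 2.30 and 1.05 in 3pRNA + TBI, and 3.34, 3.33 and 3.34 in TBI. The highest mouse of 3pRNA + TBI was still below the lowest mouse of the other groups. The 3 mice of TBI lay within a narrower range than the counting error of 1 library, since TBI replicate 2 had 201 Rsad2 reads, with a 95% Poisson interval of 174 to 231. The mean log2 ratio was 0.58 ± 0.57 (SD) in 3pRNA + TBI and 1.74 ± 0.0029 in TBI, a difference of -1.16 (exact permutation test, two-sided p = 0.10, 0.30 adjusted over the 6 ratio tests). It was 2.39 ± 0.73 in 3pRNA + anti-IFNAR1 + TBI, a difference of 1.81 from 3pRNA + TBI (exact p = 0.10, adjusted 0.30) and of 0.65 from TBI (exact p = 0.40, adjusted 0.60). With 3 mice per group no ratio test could go below 0.10. Rnf144a, the next gene on the far side of the pair, had a log2 change of 0.81 in 3pRNA + TBI against TBI and did not pass (limma, adjusted p = 0.14).

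**Figure D3:**
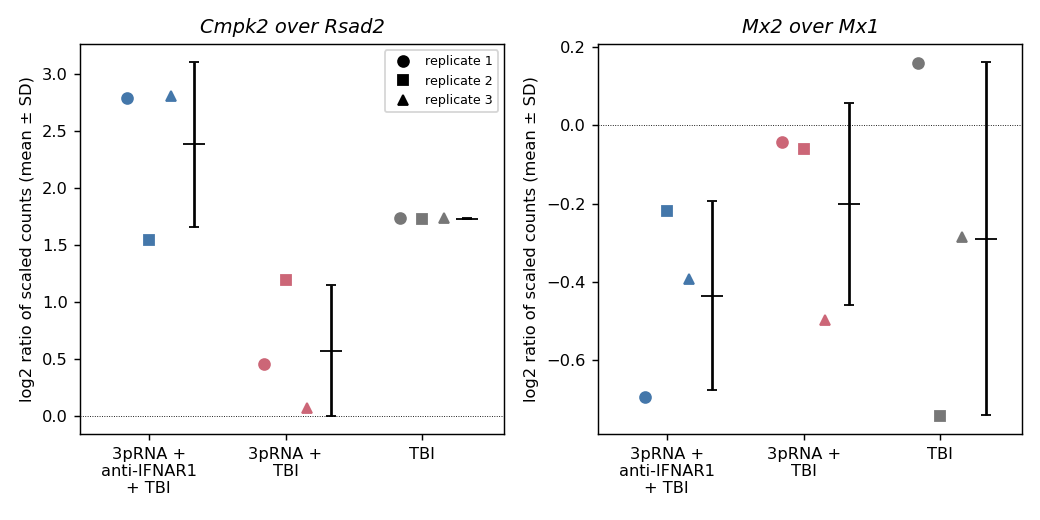
Log2 ratio of scaled counts for the neighbouring genes, Cmpk2 over Rsad2 on the left and Mx2 over Mx1 on the right, with 1 point per mouse and the mean ± SD (n = 3). For Cmpk2 over Rsad2 the 3 mice of 3pRNA + TBI are the lowest, at ratios of 1.05 to 2.30, and the 3 mice of TBI coincide near 3.34, whereas for Mx2 over Mx1 the groups overlap.

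Across the mice, replicate 2 of 3pRNA + anti-IFNAR1 + TBI was the highest of its group for 4 of 4 genes, and replicate 3 the lowest for 4 of 4. Replicate 2 of 3pRNA + TBI was the lowest of its group for 4 of 4 genes. Among 10 genes of RIG-I-like receptors and of their signalling to interferon, replicate 2 of 3pRNA + anti-IFNAR1 + TBI was also the highest of its group for 8. Among 11 genes of interferon receptors and signalling it was the highest for 6. Dhx58, which encodes the RIG-I-like receptor LGP2, had 83.5, 215 and 53.5 scaled counts in that group, and Usp18, an inhibitor of the IFN-α/β receptor, had 106, 315 and 63.9. Replicate 2 of 3pRNA + TBI was the lowest of its group for 3 of the 10 and 4 of the 11 genes. These counts are a description, since the genes of 1 mouse share its library. In cell type markers, replicate 2 of 3pRNA + anti-IFNAR1 + TBI also stood apart from its group mates. Its summed smooth muscle level was 16654, against 27890 and 26306 in replicates 1 and 3. The mean log2 level of its adipocyte markers was 3.37, against 7.79 and 5.83. Whether this bears on its levels of the 4 genes was not tested.

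The genes whose pattern over the 9 libraries was nearest to each of the 4 were found by the root mean square difference of log2 values, each gene centred on its own mean. For Mx1 these were AW011738 at 0.21, Mx2 at 0.29, Ly6e at 0.31, Oas1c at 0.32 and Dhx58 at 0.33, where the median over all genes tested was 1.09. For Mx2 they were H2-T24 at 0.18, Isg15 at 0.23, Dhx58 at 0.26, Xaf1 at 0.27 and Mx1 at 0.29, with a median over all genes of 1.19. Rsad2 was nearest to Dhx58 at 0.34, then Usp18 and Oas1b at 0.40 each, Mx2 at 0.40 and Isg15 at 0.41, with a median of 1.23. Isg15 encodes a ubiquitin-like protein that interferon induces, and Oas genes encode relatives of the enzymes that activate RNase L. The nearest genes of Cmpk2 were others, namely Rnf31 at 0.099, Irf9 at 0.12, Ifih1 at 0.14, Galnt15 at 0.14 and Parp9 at 0.15, with a median of 0.41. Rnf31 encodes the catalytic subunit of the ligase that makes linear ubiquitin chains. Cmpk2 and Rsad2 were 0.87 apart, with 126 genes nearer to Rsad2 than Cmpk2 was and 13584 nearer to Cmpk2 than Rsad2 was. Genes that change little lie near to each other in this measure, and the libraries share their depth and scaling, so these values are a description.

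Of 10 genes of RIG-I-like receptors and of their signalling to interferon, 4 rose in 3pRNA + TBI against TBI while none fell. Irf7, the factor that amplifies interferon transcription, averaged 10237 ± 1285 scaled counts in 3pRNA + TBI and 2546 ± 392 in TBI, a log2 change of 2.01 (limma, adjusted p = 0.0056). Dhx58 changed by 1.97, Ddx58, which encodes RIG-I itself, by 0.86 and the kinase Ikbke by 0.35 on the log2 scale (limma, adjusted p = 0.021, 0.031 and 0.043). The median log2 change of the 10 genes was 0.35. In 3pRNA + anti-IFNAR1 + TBI against 3pRNA + TBI, 5 of the 10 fell and none rose, with a median of -0.39. Irf7 averaged 2347 ± 1248 in 3pRNA + anti-IFNAR1 + TBI, a log2 change of -2.24 (limma, adjusted p = 0.0019), and Dhx58 changed by -2.64 (0.0048). Ddx58 changed by -1.13, Ifih1, which encodes the sensor MDA5, by -0.73 and Trim25, a ubiquitin ligase that acts on RIG-I, by -0.53 (limma, adjusted p = 0.013, 0.047 and 0.019). The adaptor Mavs and the factor Irf3, which act downstream of RIG-I, did not pass, with log2 changes of 0.065 and 0.028 in 3pRNA + TBI against TBI and -0.096 and -0.0084 in 3pRNA + anti-IFNAR1 + TBI against 3pRNA + TBI.

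Of 11 genes of interferon receptors and signalling, 1 rose in 3pRNA + TBI against TBI, Usp18 with a log2 change of 2.22 (limma, adjusted p = 0.022), and none fell. In 3pRNA + anti-IFNAR1 + TBI against 3pRNA + TBI, 3 fell and none rose. Usp18 changed by -2.75, and Stat2 and Irf9, which are parts of ISGF3, by -0.81 and -0.83 (limma, adjusted p = 0.0093, 0.019 and 0.037). The median log2 change of the 11 genes was -0.026 in 3pRNA + TBI against TBI and -0.34 in 3pRNA + anti-IFNAR1 + TBI against 3pRNA + TBI. Ifnar1, which encodes the receptor chain that the antibody binds, averaged 606 ± 46.2 scaled counts in 3pRNA + anti-IFNAR1 + TBI, 587 ± 60.1 in 3pRNA + TBI and 678 ± 25.9 in TBI, and did not pass in any comparison. None of the 21 genes of both lists passed in 3pRNA + anti-IFNAR1 + TBI against TBI. The genes of the interferons themselves were not analysed here.

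**Figure D4:**
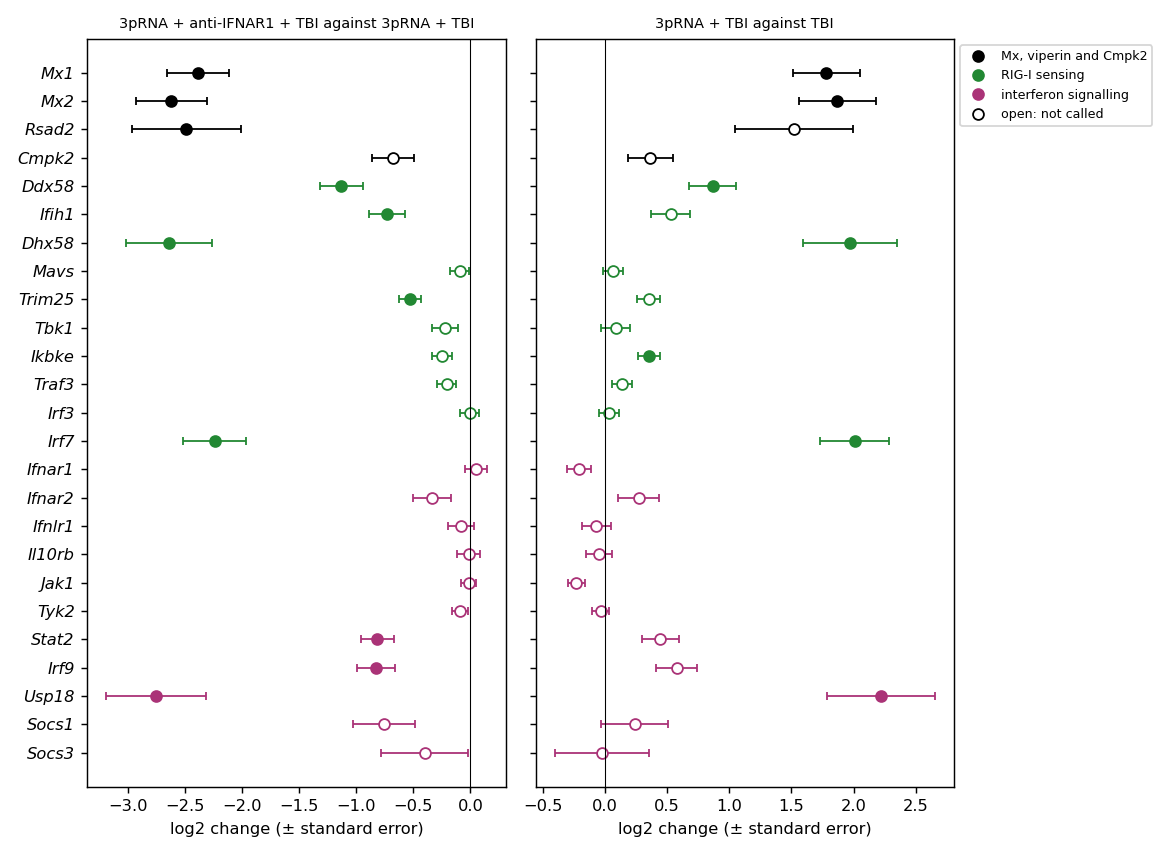
Log2 change (± standard error, limma) of the 4 genes, of 10 genes from RIG-I sensing to interferon and of 11 genes of interferon receptors and signalling, in 3pRNA + anti-IFNAR1 + TBI against 3pRNA + TBI on the left and 3pRNA + TBI against TBI on the right. Filled points had an adjusted p under 0.05, and Mx1, Mx2, Dhx58, Irf7 and Usp18 are filled on both sides with changes near -2 to -3 on the left and near 2 on the right.

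Markers of other cell types also moved in 3pRNA + TBI against TBI. Of 11 smooth muscle markers 6 rose, with a summed level of 22920 to 29759 in 3pRNA + TBI and 5681 to 19397 in TBI. Of 8 adipocyte markers 6 rose. The summed level overlapped, at 1701 to 3354 in 3pRNA + TBI and 855 to 2834 in TBI. In TBI that sum was mostly Pck1 and Cidec, which did not pass and averaged 1095 and 445 there. The mean log2 level of the 8 markers did not overlap, at 6.64 to 7.78 in 3pRNA + TBI and 2.91 to 3.33 in TBI. Adipoq, Plin1, Cfd and Lep were at 0 in 4 of the 9 libraries each, namely every library of TBI and replicate 2 of 3pRNA + anti-IFNAR1 + TBI. The size of their changes therefore depends on the 1 added before the log2. Of 10 T and NK cell markers tested 5 fell, with a summed level of 715 to 1011 in 3pRNA + TBI and 1298 to 1763 in TBI. None of 8 macrophage and dendritic cell, 7 B and plasma cell or 6 endothelial markers passed. Of 12 epithelial markers 1 fell, Lyz1, and 1 of 5 neutrophil markers, Ly6g, rose. The summed epithelial level, given above, was lower in every mouse of 3pRNA + TBI than in any mouse of the other groups. Without TBI replicates 1 and 3, the libraries low in smooth muscle, which was tried after the data were seen, the log2 change was 1.79 for Mx1 (limma, adjusted p = 0.080) and 2.33 for Mx2 (limma, adjusted p = 0.041), with TBI replicate 2 alone as the comparison and assumed to vary as the other groups. In 3pRNA + anti-IFNAR1 + TBI against 3pRNA + TBI none of the smooth muscle, adipocyte or T and NK cell markers passed, although the summed T and NK cell level was 1124 to 1495 in 3pRNA + anti-IFNAR1 + TBI and 715 to 1011 in 3pRNA + TBI, without overlap. The neutrophil marker Ly6g fell and averaged 11.6 ± 4.91 scaled counts in 3pRNA + anti-IFNAR1 + TBI and 139 ± 42.4 in 3pRNA + TBI (limma, adjusted p = 3.1e-04). The other 4 neutrophil markers tested did not pass, with log2 changes of -0.48 for Csf3r to 0.39 for Cxcr2 and a median over all 5 of 0.022. The part of cell composition in the changes of the 4 genes was not tested beyond this.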

How the data were processed

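Small intestine RNA of 9 mice was analysed, 3 per group, with groups and replicates taken from the sample labels. The authors mapped poly(A) reads to mm9 using STAR, took counts from HTSeq and deposited a signal, namely each count over the DESeq size factor plus 1. No source used here gives tool versions, gene models or strand. The tables of the authors' own comparisons, which hold fold changes, p-values and group means, were not used. Here 1 was subtracted, and 100% of values then came within 0.02 of whole reads.

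Log2(scaled count + 1) was fitted over the 3 groups at once (limma 3.58.1, R 4.3.3, trended variance), for genes with a mean of at least 10, with Benjamini-Hochberg adjustment within each comparison at 0.05. Since the deposited values are scaled counts and not counts, a count model was not the main test. Voom on whole reads served as an alternative. The test was checked on simulated data. Ratios were compared by exact permutation tests (Python 3.11.15). Exon lengths came from GENCODE on GRCm38, not the build of the authors, and promoters from RefSeq GRCm38.p6. The route of the antibody differs between the labels and the methods of the paper and is not settled here.

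The 4 genes and all lists were chosen with earlier results of these data known. Named were the 4 genes, the 5 genes nearest in pattern to each, the genes of the RIG-I and interferon signalling lists that passed, and up to 6 genes of each other list by smallest p. Ifnar1, Mavs, Irf3, Ly6g and the genes beside the 4 were named after their values were seen. Alternatives were other pseudocounts, filters, scalings and variance models, fits of 2 groups, a replicate block and each library left out in turn. A gene of the interferon signalling list is not reported here and was left out of its counts and medians.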

Additional observations from a re-analysis of the deposited data

How the results depend on the processing

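Mx1 and Mx2 kept their fall in 3pRNA + anti-IFNAR1 + TBI against 3pRNA + TBI under 21 alternatives each, with adjusted p-values in limma of at most 0.013 and 0.014. The number of the 4 genes that passed in 3pRNA + TBI against TBI was 1 to 3 over fits that left out 1 library each (1 without 3pRNA + TBI replicate 1) and 1 without TBI replicates 1 and 3, an alternative chosen after seeing the data. In 3pRNA + anti-IFNAR1 + TBI against 3pRNA + TBI it was 2 to 4 over fits without 1 library, and in 3pRNA + anti-IFNAR1 + TBI against TBI 0 in all. Rsad2 passed in 3pRNA + TBI against TBI with voom (adjusted p = 0.044) and in a fit of those groups alone (0.027). Its fall with anti-IFNAR1 did not pass without a variance trend (0.12), with robust moderation (0.18) or in a fit of those groups alone (0.052). The difference in mean log2 ratio of Mx2 to Mx1 changed sign with the library left out. It was -0.14 (without TBI replicate 2) to 0.31 in 3pRNA + TBI against TBI, and -0.37 to 0.079 (without TBI replicate 1) in 3pRNA + anti-IFNAR1 + TBI against TBI. The cause of these shifts was not tested.

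Over all genes, 794 passed in 3pRNA + TBI against TBI, with 209 in a fit with no trend, 454 in a fit of those groups alone, 101 without TBI replicates 1 and 3 and 139 to 918 without 1 library. With anti-IFNAR1, 201 passed against 3pRNA + TBI, with 103 in a fit with no trend and 91 to 222 without 1 library. Against TBI 0 passed, with 0 to 359 without 1 library, the highest without TBI replicate 2. Equal totals moved the log2 changes in 3pRNA + TBI against TBI upwards, to 1.89 for Mx1, 1.98 for Mx2, 1.63 for Rsad2 and 0.47 for Cmpk2, where the median of all genes was 0.089 instead of -0.024, and no call of the 4 genes changed.

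Whether the replicate numbers pair the mice was not settled, and the main fit did not pair them. The deviations of same-numbered mice had correlations of -0.193 to 0.345, and 5 of 9 pairs were over 0.1. Those of mice with different numbers had correlations of -0.42 to 0.23. With the replicate number as a block the genes passing were 1223, 281 and 1 in the 3 comparisons in the order above. The block changed no call of the 4 genes, with 2, 3 and 0 passing, log2 changes of 1.78 for Mx1 and 1.87 for Mx2 in 3pRNA + TBI against TBI, and adjusted p-values of 0.013 and 0.017 in limma.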

Other observations

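Relatives of the 4 genes were followed from lists of their families, which are not complete. The dynamin list held only Dnm, Opa1, Mfn and Atl genes. Guanylate-binding proteins, which are also large GTPases, were not in it. None of 10 tested members of the dynamin superfamily, 19 nucleotide kinases and CTP enzymes, 7 radical SAM enzymes and 9 genes of cytosolic iron-sulfur assembly passed in any of the 3 comparisons (limma, Benjamini-Hochberg adjusted p). Their median log2 changes in 3pRNA + anti-IFNAR1 + TBI against 3pRNA + TBI were -0.037, -0.029, 0.094 and -0.026, beside -2.44 for the 4 antiviral genes and 0.0027 for all genes tested. The member with the smallest p was Samhd1, which encodes a phosphohydrolase that degrades deoxynucleotides. It averaged 1016 ± 82.5 scaled counts in 3pRNA + anti-IFNAR1 + TBI and 1559 ± 247 in 3pRNA + TBI (SD, n = 3 each), a log2 change of -0.61 (limma, adjusted p = 0.065). Among dynamin relatives, Atl1 had the smallest p, with a log2 change of 1.80 in 3pRNA + TBI against TBI at a mean of 15.9 and 4.15 scaled counts (limma, adjusted p = 0.061). Mocs1, which acts in molybdenum cofactor synthesis, came first among radical SAM enzymes, with a log2 change of -0.20 in 3pRNA + anti-IFNAR1 + TBI against 3pRNA + TBI (limma, adjusted p = 0.46).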
